A study of Homo sapiens with 48 samples.

Results

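RASSF1, PEA15, AIFM2, ABHD4, CNTN1, ASTN1, ITGA8 and GALNT13 are 8 genes whose RNA differed between cells expressing a mutant UPF1 and cells expressing wild-type UPF1 in the absence of UPF1 knockdown. They were chosen because each differed from the wild-type line with a control siRNA in at least 1 of the lines R843C, A546H and GA-KH. All 8 are among the 57820 genes of the deposited table and among the 19129 that passed the filter on low counts. The values that chose them are given below as a description, without a test.

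RNA was sequenced from Flp-In 293 T-REx cells, a derivative of the HEK293 embryonic kidney line in which a transgene is inserted at a fixed genomic site. The 48 libraries form 16 groups of 3: 8 stable lines, each transfected with siRNA against UPF1 (siUPF1) or a non-targeting siRNA (siNT), at 40 nM, and harvested after 72 h. Of these, 6 lines carried CLIP-tagged UPF1 with the change R843C, A546H, GA-KH, K498A, DE636AA or E797R, the line WT carried CLIP-tagged wild-type UPF1, and the line CLIP carried the CLIP protein tag alone. Every line kept its endogenous UPF1 gene, so an siNT library of a mutant line holds both the mutant and the endogenous form. The labels give 1 stable line for each form, so an effect of the form and a property of the line cannot be told apart. The triplicates are biological replicates by the series' design text, and all 3 of a group come from the same line.

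UPF1 is an ATP-driven RNA helicase at the centre of nonsense-mediated mRNA decay (NMD), the decay route for transcripts whose stop codon comes too early and for many ordinary ones with long 3′ UTRs or upstream open reading frames. Transcripts that NMD degrades build up when UPF1 is removed, while other genes rise or fall as later consequences. The 8 genes have no common pathway. RASSF1 is a tumour suppressor scaffold that binds the MST kinases of the Hippo pathway, and PEA15 is a death effector domain protein that holds ERK in the cytoplasm. AIFM2, also called FSP1, reduces coenzyme Q at membranes and protects cells from ferroptosis, and ABHD4 is a lipid hydrolase of N-acylethanolamine synthesis. CNTN1 is an adhesion protein on the surface of neurons, ASTN1 (astrotactin) takes part in the migration of neurons along glia, and ITGA8 is an integrin alpha chain of kidney development. GALNT13 starts mucin-type O-glycosylation and is known mainly from neural tissue.

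The promoters of RASSF1 and CNTN1 are shown because these are the member with the highest rise and the member with the deepest fall in CLIP cells after UPF1 knockdown. Each is 300 bases from RefSeq on GRCh38.p14 around the gene's start, mostly upstream of it, 5′ to 3′ on the gene's strand, with CG dinucleotides in capitals. RASSF1 lies at chr3:50337401-50337700 on the minus strand and CNTN1, at the first of its listed starts, at chr12:40827934-40828233 on the plus strand.
RASSF1: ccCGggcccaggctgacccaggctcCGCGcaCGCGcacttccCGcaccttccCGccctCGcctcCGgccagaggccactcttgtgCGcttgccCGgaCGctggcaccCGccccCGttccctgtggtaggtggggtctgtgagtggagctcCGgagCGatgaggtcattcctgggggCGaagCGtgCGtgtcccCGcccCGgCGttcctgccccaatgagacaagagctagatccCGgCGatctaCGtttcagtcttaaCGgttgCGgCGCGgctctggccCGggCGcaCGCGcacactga
CNTN1: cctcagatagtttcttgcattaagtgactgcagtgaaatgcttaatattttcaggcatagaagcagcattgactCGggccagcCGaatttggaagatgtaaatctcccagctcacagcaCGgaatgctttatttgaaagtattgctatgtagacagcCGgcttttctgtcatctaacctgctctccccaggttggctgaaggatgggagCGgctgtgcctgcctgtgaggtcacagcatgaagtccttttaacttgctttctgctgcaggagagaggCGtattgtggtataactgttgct
The RASSF1 window held 33 CG dinucleotides and the CNTN1 window 6, against a median of 14 over 35114 RefSeq promoters of the same length. The windows of PEA15 and ITGA8 held 27 each, that of AIFM2 30, and those of ABHD4 and ASTN1 20 each. Both members with 2 listed starts were poorer in CG at 1 of them, with 2 at the second start of CNTN1 and 1 at the first start of GALNT13, whose second start had 15. The letters CACGTG, TGACGTCA and TGATGNAA, which are forms of the E-box, of the cAMP response element and of the element bound by ATF4 with C/EBP proteins, were searched on both strands. They were in no window of the 8 genes and in 7.26%, 1.85% and 3.62% of all promoters.

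In the GRCh38 annotation of GENCODE 29, 4 of the 8 genes have a transcript classed as a target of NMD, namely RASSF1 with 2 of 10, ABHD4 with 3 of 10, CNTN1 with 1 of 11 and GALNT13 with 1 of 10 transcripts. Such transcripts are listed for 41.3% of the 13960 tested protein-coding genes, so the members' share was near the background. Their 3′ UTRs ran from 793 bases in RASSF1 to 3217 in ASTN1, and those of 6 members were longer than the median of 972. The deposited values are sums over a gene's transcripts, so a change in the share of these transcripts is not seen in them. AIFM2 overlaps H2AFY2 on the opposite strand, RASSF1 overlaps the antisense RNA RASSF1-AS1, and PEA15, ABHD4 and GALNT13 each overlap a locus named after its clone on the opposite strand (AL121987.2, AC243965.2 and AC009227.1). On the same strand, CNTN1 overlaps AC015540.1 and AC016144.1, ASTN1 overlaps MIR488 and GALNT13 overlaps PHBP4. Reads of such pairs can be shared, and the strand setting of the counting is not given in the sources used here. H2AFY2 itself averaged 65.8 ± 12.4 CPM (counts scaled to the library's normalised total; SD, n = 3) in siUPF1 and 58.1 ± 2.16 CPM in siNT libraries of CLIP.

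The libraries held 21.3 to 47.1 M expected counts each. UPF1, the target, averaged 24.2 ± 10.9 CPM in siUPF1 and 108 ± 4.14 CPM in siNT libraries of CLIP, and had group means of 3958 to 7218 CPM in the 7 lines with a UPF1 transgene. With siNT it averaged 4165 ± 55.4 CPM in R843C, 4397 ± 540 in A546H and 4535 ± 521 in GA-KH. The other siNT means were 5008 ± 515 CPM in E797R, 5287 ± 315 in WT, 5423 ± 545 in K498A and 5614 ± 673 in DE636AA. A link between this level and the siNT shifts was not tested. All 7 markers listed for HEK293 cells had counts in every library, with a summed level of 855 to 1440 CPM. The highest were VIM (430 to 807 CPM), NEFL (169 to 493 CPM), LIN28B (61.8 to 171 CPM) and INA (22.1 to 68.4 CPM). PAX2 (2.42 to 8.89 CPM), NEFM (0.842 to 2.75 CPM) and SALL4 (0.0863 to 0.811 CPM) were low. Among markers of other cell types, PTPRC, CD3E, DCN and KRT5 reached at most 0.131 CPM and were at 0 in 31 to 39 libraries, ALB and APOA1 reached at most 0.182 and 0.275 CPM, and GFAP and DES at most 0.904 and 0.464 CPM. GFAP, like SALL4, was low but had counts in every library. EPCAM (64.9 to 100 CPM), COL3A1 (2.61 to 13.4 CPM) and COL1A1 (1.02 to 4.67 CPM) were detected in every library, and the part of such cells in the results was not tested. In the bulk libraries, fewer cells making a transcript and less of it per cell cannot be told apart. CLIP siUPF1 replicate 2 stood apart, with UPF1 at 36.8 CPM against 18.2 and 17.7 CPM in the other CLIP siUPF1 libraries, and mitochondrially encoded genes at 0.631% of its counts against 2.32% and 2.13%. Responses of the members in CLIP are given with and without it, and those of the gene lists where a call or a median moved without it.

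With siNT, 5 of the 8 genes differed from WT in R843C, 6 in A546H and 3 in GA-KH at an adjusted p under 0.05, the values by which they were chosen. Over all tested genes the share was 0.0889% in R843C, 0.889% in A546H and 0.0889% in GA-KH. These shares are 17, 170 and 17 genes, of which the members are only a part. The called difference nearest the threshold was AIFM2 in R843C (adjusted p = 0.0398), and the nearest outside it was GALNT13 in A546H (adjusted p = 0.054). Over the 3 lines 14 of the 24 pairs of gene and line were called, against 8 without WT siNT replicate 1 and 9 without WT siNT replicate 2 or 3, each time in a fit over all genes. The 3 lines are set against the same WT siNT libraries, so their differences are not independent.

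The fitted siNT shift over WT had the sign of the siUPF1 response of CLIP for 6 of the 8 genes in each of the 3 lines. These were the 6 genes that responded to siUPF1 in CLIP, with positive values for RASSF1, PEA15 and AIFM2 and negative ones for CNTN1, ASTN1 and ITGA8. Not all of these shifts were among those called in the choice: PEA15 in R843C (0.27), RASSF1 in A546H (0.19), and RASSF1 (0.13), AIFM2 (0.41), CNTN1 (-0.25) and ASTN1 (-0.12) in GA-KH were not, and RASSF1 and ASTN1 of GA-KH overlapped with WT. ABHD4 had positive values in all 3 lines and was called in A546H, and GALNT13 had positive values in all 3, was called in GA-KH and overlapped with WT in R843C (0.25). Their CLIP responses of -0.08 ± 0.15 and -0.03 ± 0.14 (log2, SE) did not pass the test and have no settled direction. Without CLIP siUPF1 replicate 2 the response of ABHD4 was -0.02, that of GALNT13 was 0.10 and the count of pairs of gene and line with the same sign was 21 of 24, against 18 of 24 with it. Over all 19129 genes the siNT shift and the CLIP response had the same sign in 51.2% for R843C, 57.4% for A546H and 52.0% for GA-KH. Among the 9066 genes called in CLIP the shares were 53.3%, 62.0% and 52.6% in that order of lines. Few of these genes were called with siNT over WT. The share among the genes that were was not taken, so a background chosen like the members is lacking.

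Several of the genes were at the end of their range in WT. Among the siNT libraries of the 8 lines, WT had the highest mean of CNTN1, ASTN1 and ITGA8 and the lowest of PEA15, and for CNTN1 and ITGA8 no WT library overlapped the line ranked next. CLIP siNT cells, which carry no UPF1 transgene, differed from WT siNT cells by 0.31 for AIFM2, 0.38 for ABHD4, -0.42 for CNTN1 and -0.34 for ASTN1 (log2). Of the 6 genes called in CLIP, 6 had the sign of the CLIP response in siNT E797R over WT, 5 in siNT K498A over WT and 4 in siNT DE636AA over WT, against 51.9%, 51% and 55% of all genes called in CLIP. These differences rest on the WT siNT libraries by which the genes were chosen and are no independent support. Set against CLIP siNT, whose libraries the CLIP response shares, R843C was at 1.11 for RASSF1, 0.13 for PEA15, 0.21 for AIFM2, -0.10 for CNTN1, -0.16 for ASTN1 and -0.21 for ITGA8. A546H was at 0.29, 0.35, 0.36, -0.29, -0.38 and -0.23 for the same genes in the same order. GA-KH was at 0.23, 0.46, 0.11, 0.17, 0.22 and -0.22, so that CNTN1 and ASTN1 were above CLIP there and below WT.

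**Figure D1:**
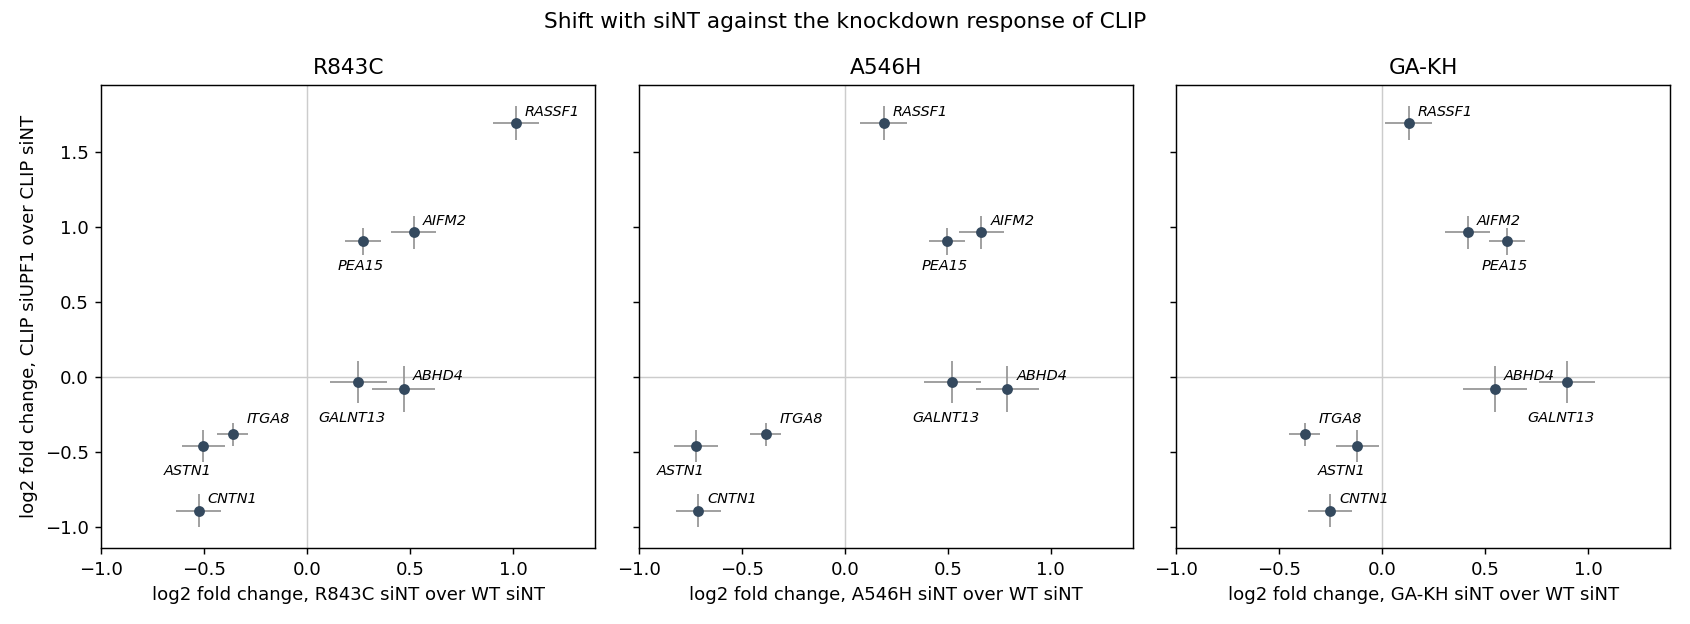
The siNT shift of each gene over WT (x axis, log2) against its siUPF1 response in the tag-only line CLIP (y axis, log2), in 1 panel for each of R843C, A546H and GA-KH, with standard errors as bars. RASSF1, PEA15 and AIFM2 lie in the upper right and CNTN1, ASTN1 and ITGA8 in the lower left of all 3 panels, while ABHD4 and GALNT13 lie to the right at a CLIP response near 0.

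The 6 responders were measured in CLIP without any rescuing transgene, where 47.4% of all tested genes were called. RASSF1 had 39.0, 53.5 and 47.2 CPM in siUPF1 libraries of CLIP, against 13.6, 15.2 and 14.3 CPM in siNT libraries. It rose 3.24-fold (log2 1.70 ± 0.11 SE, adjusted p = 4.02e-15 by edgeR's quasi-likelihood test), and no siUPF1 library overlapped an siNT library. Without CLIP siUPF1 replicate 2 the log2 responses were 1.58 for RASSF1, 1.01 for PEA15, 0.96 for AIFM2, -0.75 for CNTN1, -0.54 for ASTN1 and -0.39 for ITGA8, all still called. In R843C, RASSF1 had already reached 31.8, 32.4 and 28.8 CPM with siNT, against 14.4, 16.5 and 15.2 CPM in WT siNT, a shift of 1.01 ± 0.11 and 59.7% of the CLIP response on the log2 scale. The other lines showed little of this: A546H siNT libraries had 17.6, 17.9 and 17.1 CPM (0.19 ± 0.11), and GA-KH siNT libraries 15.7, 16.2 and 18.5 CPM (0.13 ± 0.11). Among siNT groups R843C was clear of every other line, and the remaining 7 lines, from 13.9 CPM in K498A to 17.5 CPM in A546H, overlapped with their neighbours in rank. Percentages of the CLIP response, here and below, are descriptions only. They divide a shift over WT siNT, used in the choice, by a response over CLIP siNT, so the baselines differ.

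With siUPF1, RASSF1 in R843C stood at 83.5, 89.3 and 85.2 CPM, against 16.03, 16.7 and 21.9 CPM in WT. That is 4.74-fold (log2 2.25 ± 0.11, adjusted p = 1.28e-17), and the R843C group lay above the CLIP siUPF1 group. RASSF1 also passed the test over WT in A546H (0.54), K498A (0.59) and DE636AA (0.59), and did not in GA-KH (0.26, adjusted p = 0.609) or E797R (-0.03, adjusted p = 0.986). Its siUPF1 libraries were above its siNT libraries in 6 of the 8 lines and overlapped them in WT and E797R. The genes most like RASSF1 over the 16 group means of log2 CPM, among 11547 genes with a mean of 5 CPM or more, were EPB41L4A-AS1 (Pearson r = 0.95) and WHAMMP3 (r = 0.94). Of 15 other tested RASSF and Hippo kinase genes, 4 rose and 5 fell in CLIP with a median log2 change of 0.03, where the median of all genes was -0.01. RASSF6 rose most (0.69) and RASSF2 fell most (-1.24). Without CLIP siUPF1 replicate 2 the list had 5 higher, 4 lower and a median of 0.16, and RASSF6 (0.58, adjusted p = 0.0989) was not called. Of the called genes STK3 (0.58) then rose most and RASSF4 (-1.29) fell most, with RASSF2 at -1.14.

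PEA15 had 129, 103 and 139 CPM in siUPF1 libraries of CLIP, against 62.7, 66.5 and 68.5 CPM in siNT libraries. It rose 1.88-fold (log2 0.91 ± 0.09, adjusted p = 7.61e-11), and CLIP siUPF1 replicate 2 was the lowest of the 3. Its order among siNT lines differed from that of RASSF1, with GA-KH at 90.8 ± 2.31 CPM, A546H at 84.2 ± 9.16 CPM, R843C at 71.9 ± 3.74 CPM and WT at 59.6 ± 3.67 CPM (SD, n = 3 each). GA-KH and A546H overlapped, and both were clear of R843C, which was clear of the other 5 lines. The siNT shift was thus 66.9% of the CLIP response in GA-KH, 54.9% in A546H and 29.8% in R843C.

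With siUPF1 the order of PEA15 was another, with R843C at 133 ± 2.60 CPM and A546H at 129 ± 2.34 CPM, which overlapped with each other and with CLIP at the top, GA-KH at 88.7 ± 2.50 CPM and WT at 43.7 ± 6.13 CPM. The log2 difference over WT was 1.61 ± 0.09 in R843C, 1.56 ± 0.09 in A546H, 1.06 ± 0.09 in DE636AA, 1.02 ± 0.09 in GA-KH and 0.96 ± 0.09 in K498A, each with an adjusted p of 1.59e-09 or less, and 0.16 in E797R (adjusted p = 0.719). In WT, siUPF1 libraries had 44.4, 49.5 and 37.3 CPM and siNT libraries 59.1, 63.6 and 56.3 CPM, so that PEA15 was lower with siUPF1 in the line with wild-type UPF1 and higher in CLIP. Its pattern over the groups was most like those of SPECC1L (r = 0.97) and CCDC174 (r = 0.96). Of 12 other death effector domain and ERK genes, 4 rose and 1 fell in CLIP with a median of 0.12. DEDD2 rose most (0.94) and CFLAR, a caspase-8 regulator, fell (-0.25). Without CLIP siUPF1 replicate 2 the counts were the same and the median was 0.16.

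AIFM2 had 31.3, 32.6 and 33.8 CPM in siUPF1 libraries of CLIP, against 15.9, 16.6 and 17.6 CPM in siNT libraries, a rise of 1.95-fold (log2 0.97 ± 0.11, adjusted p = 1.78e-09). With siNT it had 19.1, 18.9 and 19.9 CPM in R843C and 22.4, 19.1 and 22.5 CPM in A546H, against 13.2, 13.5 and 13.8 CPM in WT. The siNT shifts were 0.52 ± 0.11 in R843C, 0.66 ± 0.11 in A546H and 0.41 ± 0.11 in GA-KH, or 53.4%, 68.7% and 42.9% of the CLIP response in that order. The 5 siNT lines from A546H down to CLIP overlapped in rank and stood above K498A, WT and DE636AA. In siNT DE636AA over CLIP, AIFM2 was at -0.37 ± 0.11 (adjusted p = 0.0699), and with the replicate number as a block, where the numbers paired the libraries, the same difference had an adjusted p of 0.0302.

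With siUPF1, AIFM2 was higher than WT in R843C (1.49), A546H (1.00), K498A (0.69) and DE636AA (0.69), with adjusted p of 2.16e-05 or less. It missed the test in GA-KH (0.31, adjusted p = 0.425) and E797R (0.30, adjusted p = 0.411). CLIP (32.6 ± 1.27 CPM) and R843C (30.9 ± 0.98 CPM) overlapped at the top of the siUPF1 groups, with A546H next at 22.1 ± 1.09 CPM and WT lowest at 11.1 ± 1.46 CPM. FAM168B and PINX1 were most like it (r = 0.96 each). Of 14 other genes of ferroptosis defence and lipid peroxidation, 6 rose and 1 fell in CLIP with a median of 0.17. LPCAT3, which loads phospholipids with polyunsaturated fatty acids, rose most (0.97), and GPX4, the glutathione peroxidase that clears lipid peroxides, fell (-0.37). The counts were 7 and 1 without CLIP siUPF1 replicate 2, with a median of 0.37.

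ABHD4 was the member with the lowest counts beside GALNT13, at 72 to 289 counts per library. In siNT libraries it had 7.05, 6.21 and 6.97 CPM in R843C, 8.46, 7.69 and 9.16 CPM in A546H and 6.65, 6.34 and 8.40 CPM in GA-KH, against 4.63, 5.36 and 4.62 CPM in WT. All 3 mutant groups lay above WT, by 0.47, 0.79 and 0.55 on the log2 scale. The CLIP response did not pass the test, with 6.00, 5.44 and 6.51 CPM in siUPF1 and 5.91, 6.90 and 6.14 CPM in siNT libraries.

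With siUPF1 ABHD4 was higher than WT in R843C (1.06 ± 0.16, adjusted p = 5.68e-06), K498A (0.90), DE636AA (0.83) and A546H (0.72), the last no longer called without WT siUPF1 replicate 1 or A546H siUPF1 replicate 3 (0.56 and 0.55, adjusted p = 0.0541 and 0.0661). It had an adjusted p of 0.598 in GA-KH (0.38) and of 0.874 in E797R (-0.19). Its siUPF1 libraries lay below its siNT libraries in WT, A546H, GA-KH and E797R and above them in no line. ZNF586 (r = 0.93) and ZNF274 (r = 0.92) were most like it. Of 10 other N-acylethanolamine and ABHD genes, 4 rose and 1 fell in CLIP with a median of 0.15. The largest rise was that of GDE1 (0.91) and the fall that of GDPD1 (-0.91), both glycerophosphodiesterases. The counts were 3 and 1 without CLIP siUPF1 replicate 2, with a median of 0.19.

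**Figure D2:**
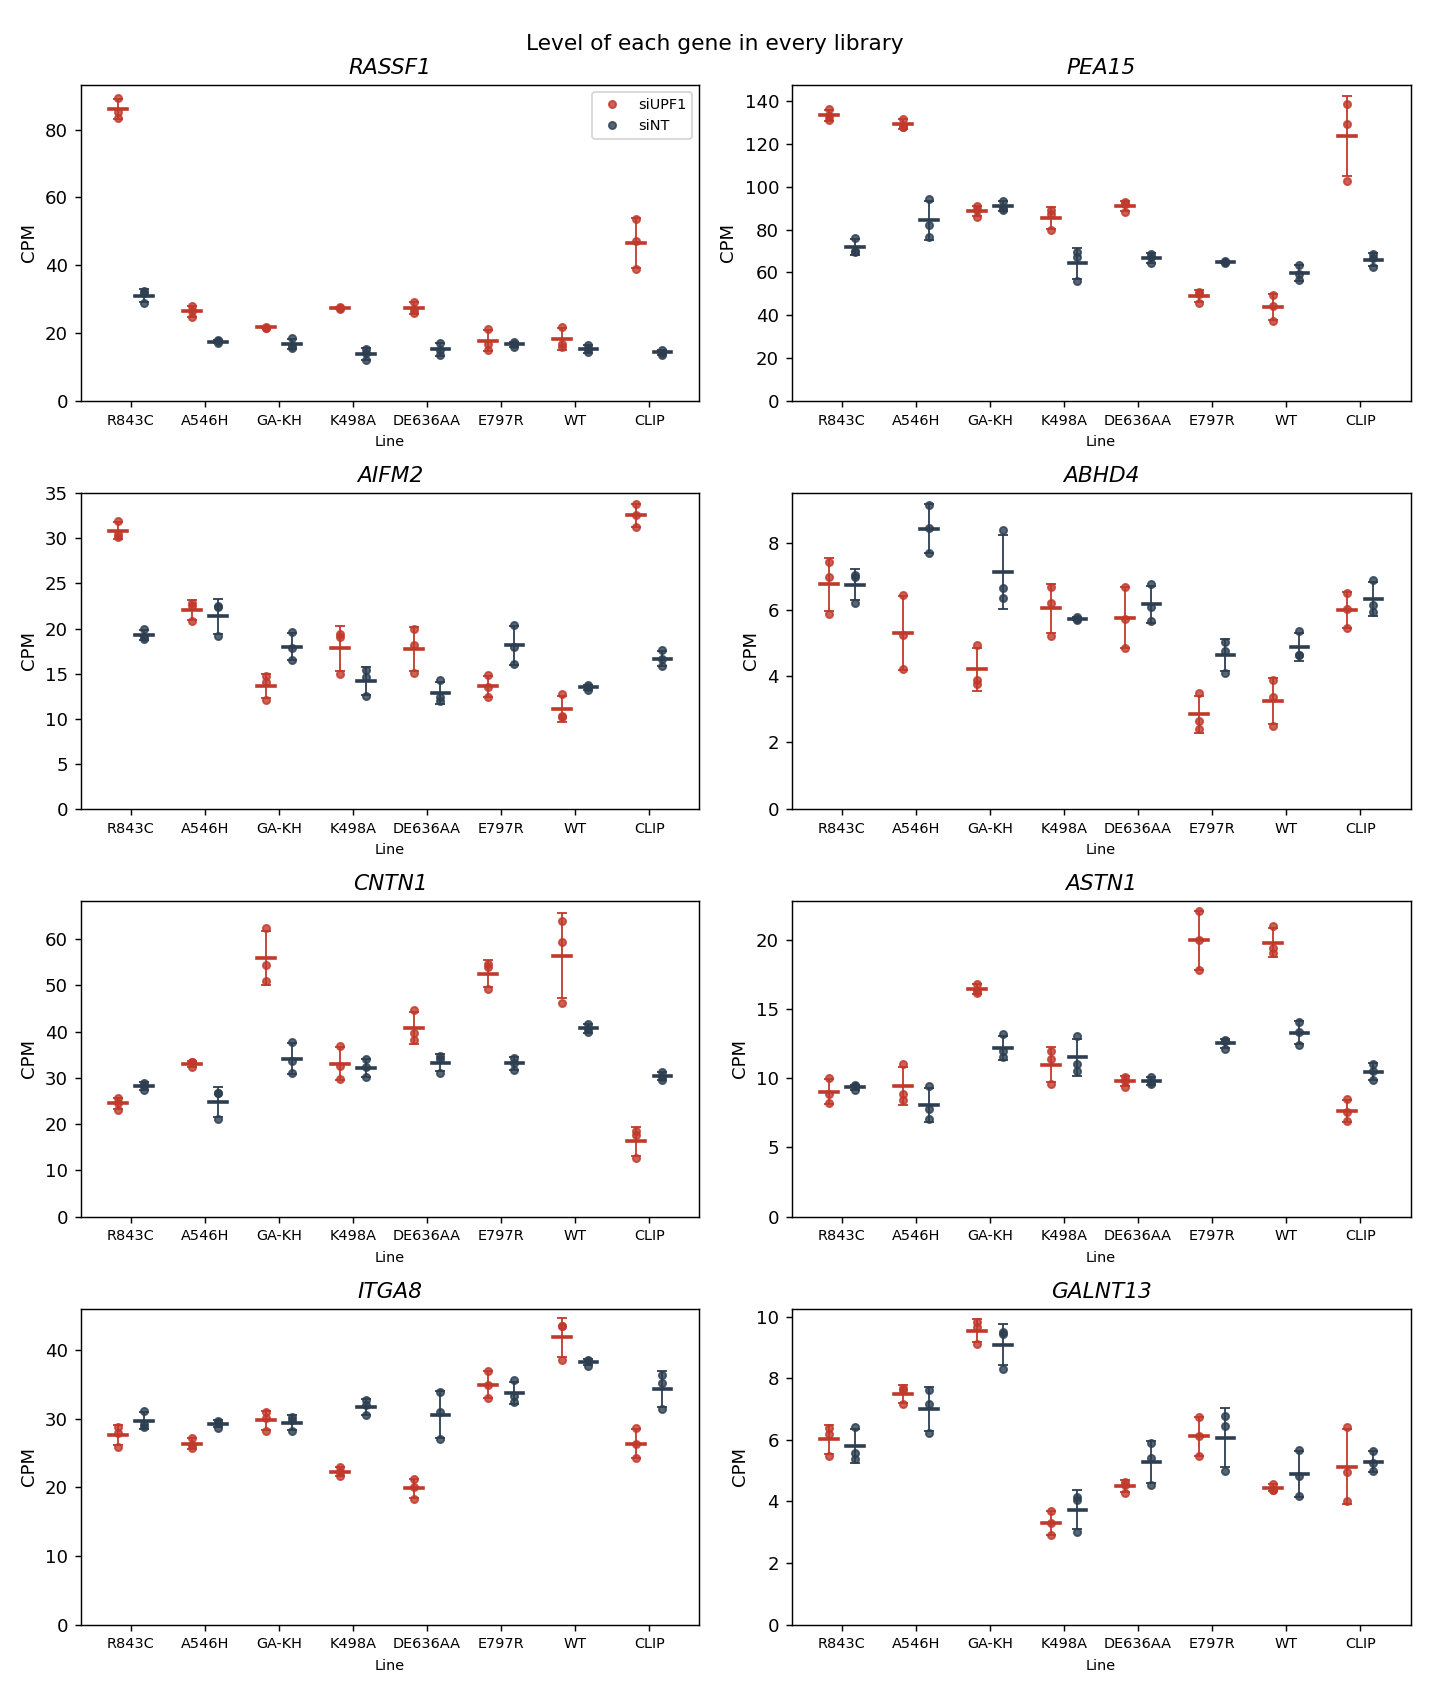
Normalised level (CPM, y axis) of each of the 8 genes in every library of the 8 lines (x axis), with siUPF1 libraries in red on the left and siNT libraries in dark on the right of each line, and the mean ± SD as a bar. RASSF1 in R843C stands at 28.8 to 32.4 CPM with siNT and at 83.5 to 89.3 CPM with siUPF1, above every other line with the same siRNA, while GALNT13 is highest in GA-KH with both.

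The neural adhesion genes ran the other way. CNTN1 had 18.5, 12.8 and 17.7 CPM in siUPF1 libraries of CLIP, against 30.2, 29.6 and 31.2 CPM in siNT libraries, a fall of 0.89 on the log2 scale (SE 0.11, adjusted p = 1.95e-08). CLIP siUPF1 replicate 2 was again the lowest of the 3. With siNT it had 28.98, 28.3 and 27.4 CPM in R843C, 26.6, 26.7 and 21.1 CPM in A546H and 33.6, 37.8 and 31.1 CPM in GA-KH, against 41.7, 39.9 and 40.6 CPM in WT. The shifts of -0.53 in R843C and -0.71 in A546H were 59.4% and 80.2% of the CLIP response, and that of -0.25 in GA-KH was 28.4%. Over CLIP siNT, the baseline of that response, CNTN1 was at -0.10 in R843C, -0.29 in A546H and 0.17 in GA-KH.

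With siUPF1, CNTN1 was lower than WT in R843C (-1.21), A546H (-0.77), K498A (-0.77) and DE636AA (-0.47), with adjusted p from 1.06e-10 to 0.00135. GA-KH (-0.02, adjusted p = 0.995) and E797R (-0.11, adjusted p = 0.884) overlapped with WT. The siUPF1 groups spread from 16.3 ± 3.11 CPM in CLIP and 24.5 ± 1.27 CPM in R843C to 56.4 ± 9.21 CPM in WT. In WT, DE636AA, A546H, GA-KH and E797R every siUPF1 library was above every siNT library of the line, whereas CLIP and R843C had the opposite order.

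CNTNAP2, a contactin-associated membrane protein, had the pattern most like that of CNTN1 (r = 0.97), followed by MOXD1 (r = 0.96). CNTNAP2 averaged 13.8 CPM in siUPF1 and 20.9 CPM in siNT libraries of CLIP (-0.59 ± 0.11, adjusted p = 4.01e-05; -0.38 without CLIP siUPF1 replicate 2, adjusted p = 0.000195). With siUPF1 it averaged 18.7 CPM in R843C and 22.8 CPM in A546H, against 31.7 CPM in WT (-0.76 and -0.48). Of 9 tested contactins and neural immunoglobulin adhesion genes beside CNTN1, out of 16 listed, 2 rose and 5 fell in CLIP with a median of -0.39 (2, 6 and -0.38 without CLIP siUPF1 replicate 2). The extremes were L1CAM (1.37) and NFASC (-1.33), both at low counts with group means of 0.602 to 2.19 CPM. With siUPF1 over WT the median of these genes was -0.39 in R843C (1 higher, 5 lower), -0.29 in A546H (0 higher, 2 lower) and -0.02 in GA-KH with none called, where the medians of all genes were -0.01, -0.01 and 0.01.

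ASTN1 had 6.92, 8.48 and 7.53 CPM in siUPF1 libraries of CLIP, against 10.5, 11.1 and 9.88 CPM in siNT libraries, a fall of 0.46 on the log2 scale (SE 0.11, adjusted p = 0.000592). With siNT it had 9.42, 9.50 and 9.16 CPM in R843C and 7.03, 7.76 and 9.40 CPM in A546H, against 12.4, 14.1 and 13.3 CPM in WT. The shifts of -0.50 and -0.72 were 110% and 158% of the CLIP response, while over CLIP siNT these lines were at -0.16 and -0.38. GA-KH, at 13.2, 11.5 and 11.9 CPM, overlapped with WT (-0.12).

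With siUPF1, ASTN1 was lower than WT in R843C (-1.13), A546H (-1.06), DE636AA (-1.01) and K498A (-0.85), with adjusted p of 1.82e-07 or less. GA-KH (-0.27, adjusted p = 0.488) and E797R (0.01, adjusted p = 0.997) missed the test. WT had 19.0, 19.4 and 20.97 CPM in siUPF1 and 12.4, 14.1 and 13.3 CPM in siNT libraries, a response of 0.57 with no overlap, whereas R843C moved by -0.05. That difference between the lines' responses was not tested. The genes most like ASTN1 were HHEX (r = 0.96) and COL4A6 (r = 0.93).

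ITGA8 was lower in all 3 lines by nearly the same amount, with 31.1, 28.8 and 29.3 CPM in R843C, 29.5, 28.7 and 29.7 CPM in A546H and 30.3, 29.9 and 28.2 CPM in GA-KH, against 38.4, 38.6 and 37.8 CPM in WT, all with siNT. The shifts of -0.36, -0.38 and -0.38 were 95.4%, 101% and 99.2% of the CLIP response, which was -0.38 ± 0.07 (adjusted p = 5.86e-05), from 28.6, 26.4 and 24.3 CPM in siUPF1 against 35.2, 36.4 and 31.4 CPM in siNT libraries. Over CLIP siNT, R843C, A546H and GA-KH were at -0.21, -0.23 and -0.22. The 7 siNT lines ranked below WT overlapped with their neighbours in rank.

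With siUPF1, ITGA8 was lower than WT in 5 of the 6 mutant lines: DE636AA (-1.08), K498A (-0.91), A546H (-0.67), R843C (-0.60) and GA-KH (-0.49). The adjusted p of GA-KH was 0.000116 and those of the others 1.15e-07 or less, and E797R missed the test (-0.26, adjusted p = 0.187). ITGA8 was lowest in DE636AA (19.9 ± 1.41 CPM) and K498A (22.3 ± 0.66 CPM), both below CLIP (26.4 ± 2.18 CPM) with no overlap. FRAS1, an extracellular matrix protein of kidney development, and SMIM14 were most like it (r = 0.92 each). Of 17 other genes of integrins and their partners, 6 rose and 3 fell in CLIP with a median of -0.06, with ITGA3 (1.28) and the integrin ligand FN1 (-0.74) at the extremes. The median was 0.05 without CLIP siUPF1 replicate 2, with 5 higher and 3 lower.

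The level of GALNT13 differed between lines and little between siRNAs. It had 9.66, 9.84 and 9.12 CPM in siUPF1 and 9.43, 9.51 and 8.31 CPM in siNT libraries of GA-KH, against 4.38, 4.38 and 4.58 CPM in siUPF1 and 5.66, 4.16 and 4.82 CPM in siNT libraries of WT. The GA-KH group was clear of every other line with either siRNA, A546H was second (7.49 ± 0.28 CPM with siUPF1, 7.01 ± 0.71 CPM with siNT) and K498A was lowest (3.31 ± 0.39 and 3.73 ± 0.63 CPM). The siUPF1 and siNT libraries overlapped in all 8 lines.

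With siUPF1, GALNT13 was higher than WT in GA-KH (1.10 ± 0.14, adjusted p = 4.72e-06), A546H (0.75, adjusted p = 0.000308) and R843C (0.44, adjusted p = 0.0307) and lower in K498A (-0.43, adjusted p = 0.0454). The call in R843C was lost without WT siUPF1 replicate 1 or 2 or R843C siUPF1 replicate 2 or 3 (0.40 to 0.43), and that in K498A without any 1 of the WT siUPF1 libraries or of K498A siUPF1 replicates 1 and 2 (-0.43 to -0.33). No gene had a pattern as close to it as for the other members, UBAP1L (r = 0.76) and CLSPN (r = 0.75) being the nearest. Of 16 other tested GALNT genes and their partners, 3 rose and 3 fell in CLIP with a median of -0.04, with GALNT10 (0.69) and C1GALT1C1, a chaperone of O-glycan extension, (-0.65) at the extremes. The median was 0.04 without CLIP siUPF1 replicate 2, with 3 higher and 3 lower. GALNT12 (-0.68) then fell most, and C1GALT1C1 was at -0.40. GALNT10 was the only gene of the list called in siUPF1 GA-KH over WT (0.42, adjusted p = 0.0121).

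These siUPF1 comparisons with WT use no library of the choice. The WT line and the lines R843C, A546H and GA-KH are the same as in the choice. In these comparisons 8 of the 8 genes were called in R843C (14.0% of all tested genes), 8 in A546H (8.08%), 8 in K498A (12.1%), 7 in DE636AA (18.2%), 3 in GA-KH (0.314%) and 0 in E797R (0.120%). In E797R, 3 of the 8 genes had an unadjusted p under 0.05 with edgeR, a threshold at which the share of all genes was not taken. DESeq2 called 1 of them, and 83 of all tested genes. In R843C, A546H and GA-KH the sign of the siUPF1 difference was that of the siNT shift for 8 of 8 genes, while over all genes 65.9%, 63.7% and 60.3% had the same sign in that order. The siNT signs are those of the values that chose the members, and few of all genes were called with siNT. A background chosen like the members is lacking for these signs and for the calls above. In GA-KH the siUPF1 difference of CNTN1 was only -0.02 ± 0.11, and 3 of the 8 genes were called. A lasting difference between lines would appear with both siRNAs, so the results in R843C, A546H and GA-KH are not independent of the choice. All 6 siUPF1 comparisons share the WT siUPF1 libraries.

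**Figure D3:**
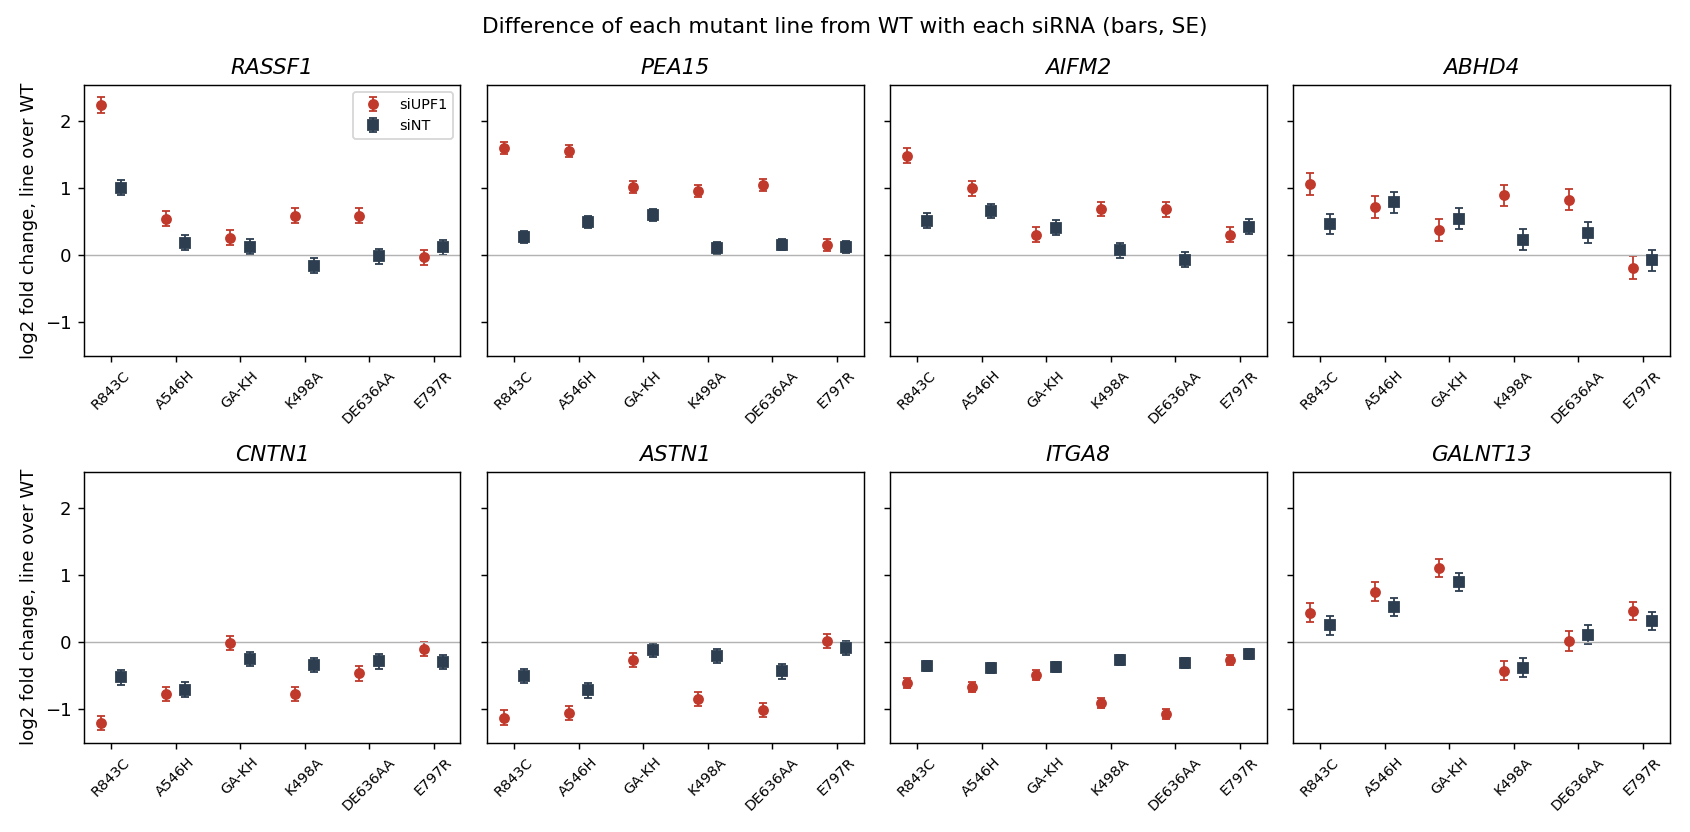
Log2 fold change of each mutant line over WT (x axis) for the 8 genes, with siUPF1 and siNT shown apart and standard errors as bars. R843C with siUPF1 reaches 2.25 for RASSF1, ITGA8 is lowest in DE636AA and K498A with siUPF1, and E797R lies nearest 0 with siUPF1 for most genes.

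Set against CLIP with siNT, 0 of the 8 genes passed the test in K498A (0.0366% of all tested genes), in DE636AA (1.34%) and in E797R (0.0261%). In each of these 2 of 8 genes had an unadjusted p under 0.05 with edgeR, where the share of all genes was not taken. DESeq2 called 0, 1 and 0 of them, the 1 being AIFM2 in DE636AA, and 60, 616 and 12 of all tested genes. With the replicate block, the number of all genes called in DE636AA went to 1273, against 257 without it. Without DE636AA siNT replicate 1 the difference of AIFM2 was -0.45 with an adjusted p of 0.026.

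The responses to siUPF1 within a line were tested in K498A, DE636AA and E797R, which the choice did not use. In K498A, 4 of 8 genes were called (32.7% of all tested genes), with RASSF1 (0.98), PEA15 (0.41) and AIFM2 (0.33) higher and ITGA8 (-0.51) lower. The call of AIFM2 was lost without K498A siNT replicate 1 or K498A siUPF1 replicate 2 or 3 (0.24 to 0.27, adjusted p = 0.112 to 0.14). In DE636AA, 5 of 8 were called (34.3%), with RASSF1 (0.85), PEA15 (0.45), AIFM2 (0.46) and CNTN1 (0.29) higher and ITGA8 (-0.62) lower. The rise of CNTN1 was not called without DE636AA siNT replicate 1 or 3 or DE636AA siUPF1 replicate 2 (0.23 to 0.31, adjusted p = 0.0507 to 0.15).

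In E797R, 5 of 8 were called (29.5%), with CNTN1 (0.67) and ASTN1 (0.67) higher and PEA15 (-0.41), AIFM2 (-0.41) and ABHD4 (-0.70) lower. Each of PEA15, AIFM2, CNTN1 and ASTN1 moved against its response in CLIP. The values of WT, whose siNT libraries were used in the choice and which is therefore not tested, had the same signs, with -0.45 for PEA15, -0.29 for AIFM2, -0.59 for ABHD4, 0.47 for CNTN1 and 0.57 for ASTN1. GA-KH, also untested, had -0.03, -0.40, -0.76, 0.71 and 0.43 for the same genes in the same order.

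The difference between a line's response and that of CLIP was called for 4 of 8 genes in K498A (13.6% of all tested genes), 5 in DE636AA (17.9%) and 6 in E797R (13.3%). For RASSF1 it was -0.71 in K498A, -0.85 in DE636AA and -1.61 in E797R, and for CNTN1 0.93, 1.18 and 1.55 in the same lines. Without CLIP siUPF1 replicate 2 these were -0.61, -0.73 and -1.52 for RASSF1 and 0.78, 1.05 and 1.38 for CNTN1, and 4, 5 and 7 genes were called, among them ABHD4 in E797R (-0.72, adjusted p = 0.0418). In DE636AA the calls of AIFM2 (-0.51, adjusted p = 0.0183) and ASTN1 (0.46, adjusted p = 0.0322) depended on single libraries. AIFM2 was not called without CLIP siNT replicate 1, DE636AA siNT replicate 1 or DE636AA siUPF1 replicate 2 (adjusted p = 0.0585 to 0.0872). ASTN1 was not called without CLIP siNT replicate 1 or 2, CLIP siUPF1 replicate 1, DE636AA siNT replicate 1 or 2, or DE636AA siUPF1 replicate 1 or 3 (adjusted p = 0.0559 to 0.084). The untested responses of R843C were 1.47 for RASSF1, 0.89 for PEA15 and 0.68 for AIFM2, and 0.00 for ABHD4, -0.21 for CNTN1, -0.05 for ASTN1 and -0.11 for ITGA8. A546H had 0.59 for RASSF1 and 0.62 for PEA15, and 0.05 for AIFM2, -0.66 for ABHD4 and 0.41 for CNTN1.

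**Figure D4:**
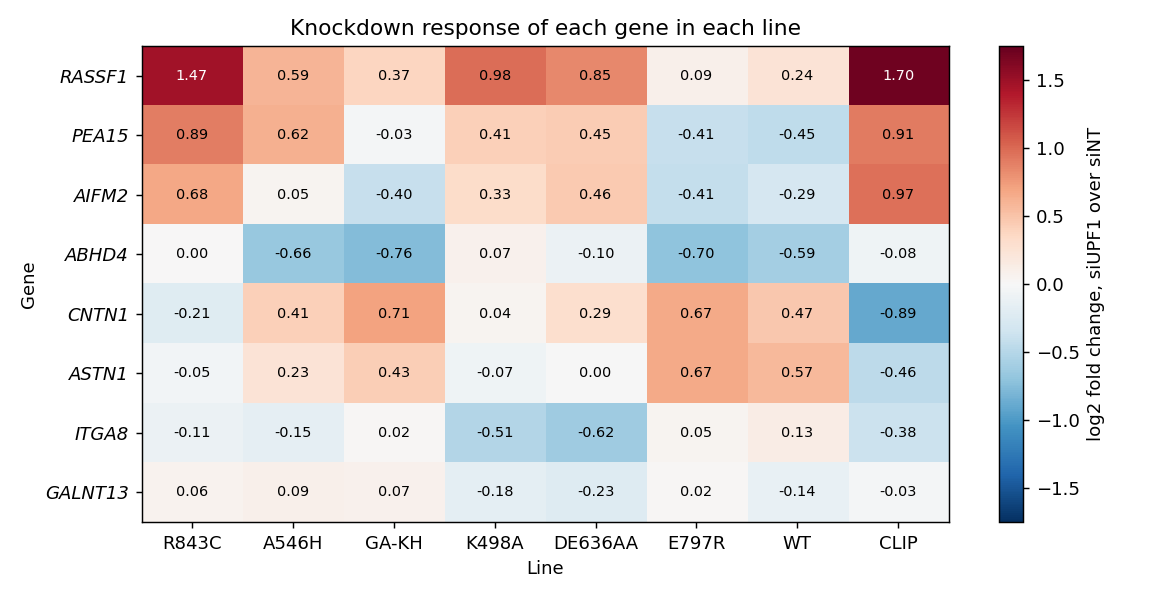
Heat map of the siUPF1 over siNT log2 fold change of the 8 genes (rows) in the 8 lines (columns). RASSF1 is highest in CLIP (1.70) and R843C (1.47), and PEA15, AIFM2, CNTN1, ASTN1 and ITGA8 have opposite signs in CLIP and WT.

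A list of 18 commonly used NMD targets was followed for comparison. In the CLIP response all 18 rose, with a median of 1.00 and BAG1 at the top (2.30). Without CLIP siUPF1 replicate 2 18 also rose (median 1.00), with RP9P at the top (2.47). With siUPF1 over WT 17 were higher in R843C (median 0.98), 12 in A546H (0.49) and 1, SMG5, in GA-KH (0.01), and none was lower. With siNT over WT the medians were 0.24 in R843C, 0.23 in A546H and -0.02 in GA-KH, with 1, 1 and 0 called. The medians of all genes in GA-KH over WT were 0.01 with siUPF1 and -0.01 with siNT. PEA15, ITGA8 and GALNT13 were called there with siUPF1, and their siNT calls are those of the choice. Whether the shifts of PEA15, ITGA8 and GALNT13 in GA-KH are related to NMD was not tested.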

How the data were processed

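RNA was measured in 48 libraries of 16 groups of 3. The authors deposited unnormalised expected counts for 57820 genes. Per the submitters' processing notes, cutadapt, STAR, RSEM and DESeq2 were used with hg19. Versions, annotation and strand setting are not given in the sources used here. Expected counts were rounded and fitted in R 4.3.3 with edgeR 4.0.16 (filterByExpr, TMM, quasi-likelihood test, 1 term per group, all libraries, 19129 genes). The threshold for a call was 0.05, after Benjamini-Hochberg adjustment over all genes of a comparison. CPM are scaled by TMM, and likeness used log2 CPM with a prior count of 2.

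The members, gene lists and tests were chosen with earlier results of these data known. Tests cover 16 comparisons of libraries the choice did not use. Named were all members, the 2 genes most like each, and the largest rise and fall of each list in CLIP. Where the largest changed without CLIP siUPF1 replicate 2, the new one was named too. Transgene and endogenous UPF1 reads are counted together, and p-values measure the spread between transfections of 1 line per form. No 2 replicates differed by as little as sampling noise.

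Same-numbered libraries deviated together, with every correlation over 0.1, in 6 comparisons (siUPF1 K498A and DE636AA over WT, siNT DE636AA and E797R over CLIP, and the K498A and DE636AA responses), where the numbers were taken to pair them. On simulated counts of the CLIP response over 18784 genes the fit called 50 of 50 genes changed by 1 on the log2 scale in each direction, and 42 of 50 raised and 40 of 50 lowered by 0.58, with 13 false calls. Only these genes were changed, all with a mean of 5 CPM or more, with trended dispersions and no outlying library. In the data 9066 genes were called in the CLIP response and 1 library stood apart, so these rates need not hold there. Alternatives were DESeq2 1.42.0 size factors and Wald test, no filter, a replicate block and each library left out, one of them, CLIP siUPF1 replicate 2, added after seeing the data.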

Additional observations from a re-analysis of the deposited data

Results flagged for a closer look

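The response of several genes differed between lines in the test of the difference itself (line minus CLIP, log2, edgeR). RASSF1 responded less than in CLIP, by -0.71 in K498A, -0.85 in DE636AA and -1.61 in E797R. PEA15 differed by -0.50, -0.46 and -1.32 and AIFM2 by -0.64, -0.51 and -1.38 in the same order of lines. CNTN1 differed by 0.93 in K498A, 1.18 in DE636AA and 1.55 in E797R. ASTN1 differed by 0.46 in DE636AA and 1.13 in E797R, and ITGA8 by 0.43 in E797R.

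In other cases every siUPF1 library of some lines was above every siNT library of the line while other lines had the opposite order. This difference in direction was not tested as such. PEA15 was above in 5 lines (CLIP, K498A, DE636AA, R843C, A546H) and below in 2 (WT, E797R). AIFM2 was above in 3 (CLIP, DE636AA, R843C) and below in 3 (WT, GA-KH, E797R). CNTN1 was above in 5 (WT, DE636AA, A546H, GA-KH, E797R) and below in 2 (CLIP, R843C). ASTN1 was above in 3 (WT, GA-KH, E797R) and below in 1 (CLIP). ITGA8 was above in 1 (WT) and below in 5 (CLIP, K498A, DE636AA, R843C, A546H).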

How the results depend on the processing

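No member reversed its direction under any alternative in a called comparison. With the DESeq2 Wald test the count of called members was 1 in siUPF1 E797R over WT (ITGA8, -0.27, adjusted p = 0.0431) and 1 in siNT DE636AA over CLIP (AIFM2), where the replicate block also gave 1 and leaving out 1 library gave 0 to 1. With no filter on low counts, 2 members were called in the DE636AA response minus the CLIP response, and 3 to 6 without 1 library, against 5. PEA15 (adjusted p = 0.0582), AIFM2 and ASTN1 lost their calls there with no filter, as did ITGA8 in the E797R response minus the CLIP response (adjusted p = 0.127, 5 members called against 6). Also lost with no filter were GALNT13 in siUPF1 K498A and R843C over WT (adjusted p = 0.218 and 0.146) and AIFM2 in the K498A response (0.0611). Over the 3 lines of the choice the pairs called ran from 8 to 14 without 1 library. They were 10 with no filter and 15 with DESeq2 size factors, the Wald test or the block. Among tests of a member without 1 library, 877 kept their side of the threshold, 27 lost and 8 gained a call. Beyond AIFM2 in siNT DE636AA over CLIP, the replicate block changed 1 call, ABHD4 in the E797R response minus the CLIP response (-0.63 and adjusted p = 0.0562 without it, 0.0185 with it). The same call was gained with DESeq2 (0.0315) and in 4 tests without 1 library (0.0151 to 0.0432). The check of pairing was made on the responses themselves, and those of E797R and CLIP did not pass it. In all, 39 of 48 libraries correlated best with their own number, a hint from the data only. Over all genes the counts of calls moved by over 1.5 times in these cases. The count in siUPF1 GA-KH over WT was 60, against 31 to 49 without 1 library (37, 31 and 36 without WT siUPF1 replicate 3 and GA-KH siUPF1 replicates 1 and 3), 97 with DESeq2, 177 with no filter and 152 with the block. For siUPF1 E797R over WT it was 23, against 3 to 29 (11 and 5 without WT siUPF1 replicates 1 and 3, 11 and 3 without E797R siUPF1 replicates 1 and 2), 83, 181 and 84 in that order. For siNT K498A over CLIP it was 7, against 2 to 7 (2, 2 and 4 without CLIP siNT replicates 1, 2 and 3, 2 without K498A siNT replicate 1), 60, 339 and 205. For siNT DE636AA over CLIP it was 257, against 4 to 1119 (10, 36 and 9 without CLIP siNT replicates 1, 2 and 3, 1119, 4 and 5 without those of DE636AA), 616, 764 and 1273. For siNT E797R over CLIP it was 5, against 3 to 4 without 1 library (3 without CLIP siNT replicate 1 or E797R siNT replicate 1 or 3), 12 with DESeq2 and 66 with no filter. Without A546H siUPF1 replicate 1 siUPF1 A546H over WT had 979 calls (1546 in full). Without CLIP siUPF1 replicate 1 the differences of responses from CLIP had 4438 (2599) in K498A, 5162 (3430) in DE636AA and 4263 (2539) in E797R, and that of K498A had 1593 without K498A siNT replicate 3. The causes were not tested. Depth limits ABHD4 and GALNT13 most, with 72 and 98 counts in their lowest libraries.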
